A study of Mus musculus with 3 samples.

Results

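Messenger RNA of 8 genes of the caspase machinery was followed in B16 cells, a mouse melanoma line, at 0, 2 and 4 h after addition of doxorubicin. The genes were the initiator caspases Casp2, Casp8 and Casp9, the executioner caspase Casp6, the apoptosome scaffold Apaf1, the mitochondrial protein Diablo and the inhibitor of apoptosis proteins Birc2 and Xiap. They were chosen by name, with earlier results of these data known. Every probe set annotated to them was read, which gave 19 of the 45101 probe sets on the array and 8 of 18193 named genes. Doxorubicin is a chemotherapy drug that breaks DNA by trapping topoisomerase II on it. It was used at 1 µg/ml for the cultures at 2 h and 4 h, and the 0 h culture was the starting point of the same course. Each time was measured on 1 Mouse430_2 array, so no spread between cultures was available and no difference below has a test. All cultures were grown in medium with serum. Untreated cultures of the later times were not analysed here, and an effect of the drug and an effect of elapsed time cannot be told apart.

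Caspases are cysteine proteases that are made as inactive precursors and that carry out apoptosis once they are cleaved or clustered. Initiators are activated on platforms. Death receptors recruit Casp8, the PIDDosome recruits Casp2, and cytochrome c released from mitochondria assembles Apaf1 into the apoptosome, which recruits Casp9. Executioners such as Casp6 then cleave cell proteins, lamins among them. Xiap binds caspases and blocks them, Birc2 (cIAP1) is a ubiquitin ligase of tumour necrosis factor receptor complexes, and Diablo (Smac) displaces inhibitor of apoptosis proteins from their targets. In melanoma, Apaf1 is known as a gene whose expression can be lost, and it is a known target of p53 and E2F1. Much of this machinery is controlled on the protein, so an mRNA signal does not measure caspase activity.

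The stretches before the annotated start of 4 of the genes are shown because Apaf1, Casp2 and Birc2 were the members past 2-fold lower at 4 h, and Diablo, which differed little, stands beside them for contrast. Each holds the 250 bases before the start, from the RefSeq-based promoter table of build GRCm38.p6, read 5′ to 3′ on the strand of the gene. Capitals mark matches, on either strand, to the GC box GGGCGG, the CCAAT box CCAAT, the cAMP response element TGACGTCA, the NRF1 core GCGCATGC or the E2F-like motif TTTNNCGC.
Apaf1 (chr10:91082744-91082993, minus strand): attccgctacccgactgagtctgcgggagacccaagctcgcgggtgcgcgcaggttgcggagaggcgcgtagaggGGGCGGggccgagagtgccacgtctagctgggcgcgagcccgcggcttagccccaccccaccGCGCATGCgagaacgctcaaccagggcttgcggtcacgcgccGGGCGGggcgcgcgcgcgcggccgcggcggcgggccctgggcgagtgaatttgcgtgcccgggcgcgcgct
Casp2 (chr6:42264735-42264984, plus strand): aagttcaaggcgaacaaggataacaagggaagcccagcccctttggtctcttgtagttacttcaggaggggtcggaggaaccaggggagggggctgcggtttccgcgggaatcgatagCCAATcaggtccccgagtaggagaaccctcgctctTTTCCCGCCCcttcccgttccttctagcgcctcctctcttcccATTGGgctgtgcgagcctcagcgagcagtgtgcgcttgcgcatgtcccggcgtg
Birc2 (chr9:7837058-7837307, minus strand, the more upstream of 2 listed starts): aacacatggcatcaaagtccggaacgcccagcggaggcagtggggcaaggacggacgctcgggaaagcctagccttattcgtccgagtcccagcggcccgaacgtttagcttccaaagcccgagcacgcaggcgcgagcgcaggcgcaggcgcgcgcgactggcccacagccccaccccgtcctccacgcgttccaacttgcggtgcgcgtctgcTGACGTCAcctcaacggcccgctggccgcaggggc
Diablo (chr5:123524165-123524414, minus strand): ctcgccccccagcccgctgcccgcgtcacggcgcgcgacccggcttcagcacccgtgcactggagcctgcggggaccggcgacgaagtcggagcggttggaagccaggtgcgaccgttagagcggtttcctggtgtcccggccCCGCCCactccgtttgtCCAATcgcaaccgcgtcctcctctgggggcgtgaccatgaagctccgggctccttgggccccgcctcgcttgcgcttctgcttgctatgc
No motif was shared by all 3 lower genes. Apaf1 held 2 GC boxes and the NRF1 core, Casp2 held 1 GC box, 2 CCAAT boxes and 1 E2F-like motif that overlaps the GC box, and Birc2 held the cAMP response element. Diablo held 1 GC box and 1 CCAAT box. Of 32851 windows of the same length in the table, 32.7% held a GC box, 33.8% a CCAAT box, 1.55% the cAMP response element, 2.26% the NRF1 core and 4.28% the E2F-like motif. Among the other members, the single window read for each held 4 GC boxes for Casp9, 1 for Casp6, 1 for Xiap and none for Casp8, which had 1 CCAAT box. The share of G and C was 39.6% for Casp8 and 75.6% for Apaf1, the lowest and highest of the 8 windows. A match describes letters in a window and was not tied to binding of any factor.

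Signals are probe set intensities rescaled to the same trimmed mean on each array. Ratios were taken after signals under 100, the floor, were set to 100, and probe sets were kept where the mean of their 3 log2 signals was at least the log2 of 200. Of the 19 member probe sets, 9 passed, and they covered 7 of the 8 genes. Casp9 had no passing probe set. Signals of at least 200 were found for 10 member probe sets at 0 h, 9 at 2 h and 6 at 4 h. Over all probe sets on the array the shares were 43.4%, 40% and 38.2%, so the whole array also ran lower. Because the filter reads all arrays together, a dim probe set that is high at 0 h can pass through that array alone. Birc2, the dimmer Apaf1 probe set and the dimmer Xiap probe set had passed with 4 h signals under 200.

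The error given with a ratio is the SD of log2 ratios between passing probe sets of the same gene. It was pooled within each of 4 equal classes of probe sets by signal, over the 3905 genes with 2 or more passing sets. For Casp2, Casp8, Casp6, Diablo and Birc2, with 1 passing set each, it comes from other genes alone. For 2 h against 0 h it was 0.56, 0.44, 0.35 and 0.27 from the dimmest to the brightest class. The same SDs were 0.66, 0.53, 0.42 and 0.32 when 4 h was set against 0 h. Differences between cultures are not part of this error, while true differences between transcripts of a gene are.

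Across the 9723 genes that passed, 5.69% lay past 2-fold lower and 1.41% past 2-fold higher at 2 h against 0 h. At 4 h against 0 h, 14.4% lay past 2-fold lower and 2.32% past 2-fold higher. The array scaling changed this split. Of the genes past 2-fold at 4 h, 86.1% were lower, a share of 54.7% under equal medians, 69.7% under quantile normalization and 97.1% when arrays were scaled to the hybridization spike-ins, and at 2 h the shares were 80.1%, 61.6%, 63.2% and 92.8%. All genes together had a median log2 ratio of -0.01 at 2 h, while the 4 h value was -0.07, and the same scalings moved it at 4 h by 0.30, 0.12 and -0.32, and at 2 h by 0.15, 0.04 and -0.22. The labels name B16 melanoma cells in the title and source and BMDM, a usual abbreviation for bone marrow-derived macrophages, in the description, and for the later arrays an agent written ET, which they do not expand. Of 8 pigment cell markers, 8, 7 and 7 had a signal of at least 200 at 0, 2 and 4 h, with Tyrp1, a melanosomal enzyme, the brightest at 42568, 44083 and 47128. Their signals did not run one way: 5 were higher at 4 h than at 0 h and 3 lower. Among the 3 lower, named after their values were seen, the pigment cell transcription factors Sox10 (11710, 2640 and 892) and Mitf (6576, 2031 and 740) stepped down at each time, and the enzyme Tyr was at 221, 170 and 142. Of 8 macrophage markers, 4, 3 and 4 did, led by the lysosomal glycoprotein Cd68 at 1884, 3044 and 3699. The summed macrophage signal was 3375, 4337 and 5188, but 1491, 1293 and 1490 without Cd68. Of the 8, 4 were higher at 4 h than at 0 h and 4 lower, and Itgam and Ptprc stayed under the floor. Col1a1 led 5 fibroblast markers, of which 2 reached 200 at each time, Cd8a led 3 lymphocyte markers and Kdr led 4 endothelial markers, of which 1 each did. The part of other cell types in the ratios below was not tested. Per the file headers, the 4 h array was hybridised 94 minutes after the array at 0 h in the instrument log, and the 2 h array 1 minute after it, on fluidics modules 3, 4 and 1 in time order. The instrument run of the 4 h array and its time point cannot be told apart.

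Of the 7 member genes that passed, 3 were at least 2-fold lower at 4 h against 0 h, namely Apaf1, Birc2 and Casp2, and none was 2-fold higher, beside the 14.4% and 2.32% of all genes. At 2 h against 0 h, 1 of 7 was at least 2-fold lower, Birc2, and none was higher, beside 5.69% and 1.41%. Counted as probe sets, 2 of 9 were past 2-fold lower at 2 h and none past 2-fold higher, beside 5.68% and 1.66% of 15785 probe sets. At 4 h 4 of 9 were past 2-fold lower and none past 2-fold higher, beside 13.9% and 2.74%. The members' median log2 ratio was -0.45 at 2 h and -0.56 at 4 h, beside -0.01 and -0.07 for all genes. Relative to the median of all genes, the 4 h log2 ratio was -1.75 for Apaf1, -1.48 for Birc2 and -0.98 for Casp2. These are bulk RNA signals, in which fewer cells expressing a gene and less RNA per cell cannot be told apart. Both comparisons share the 0 h array. The filter favours probe sets that are high on some array, be it 0 h or a later one. These counts therefore describe the passing members and support no more.

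**Figure D1:**
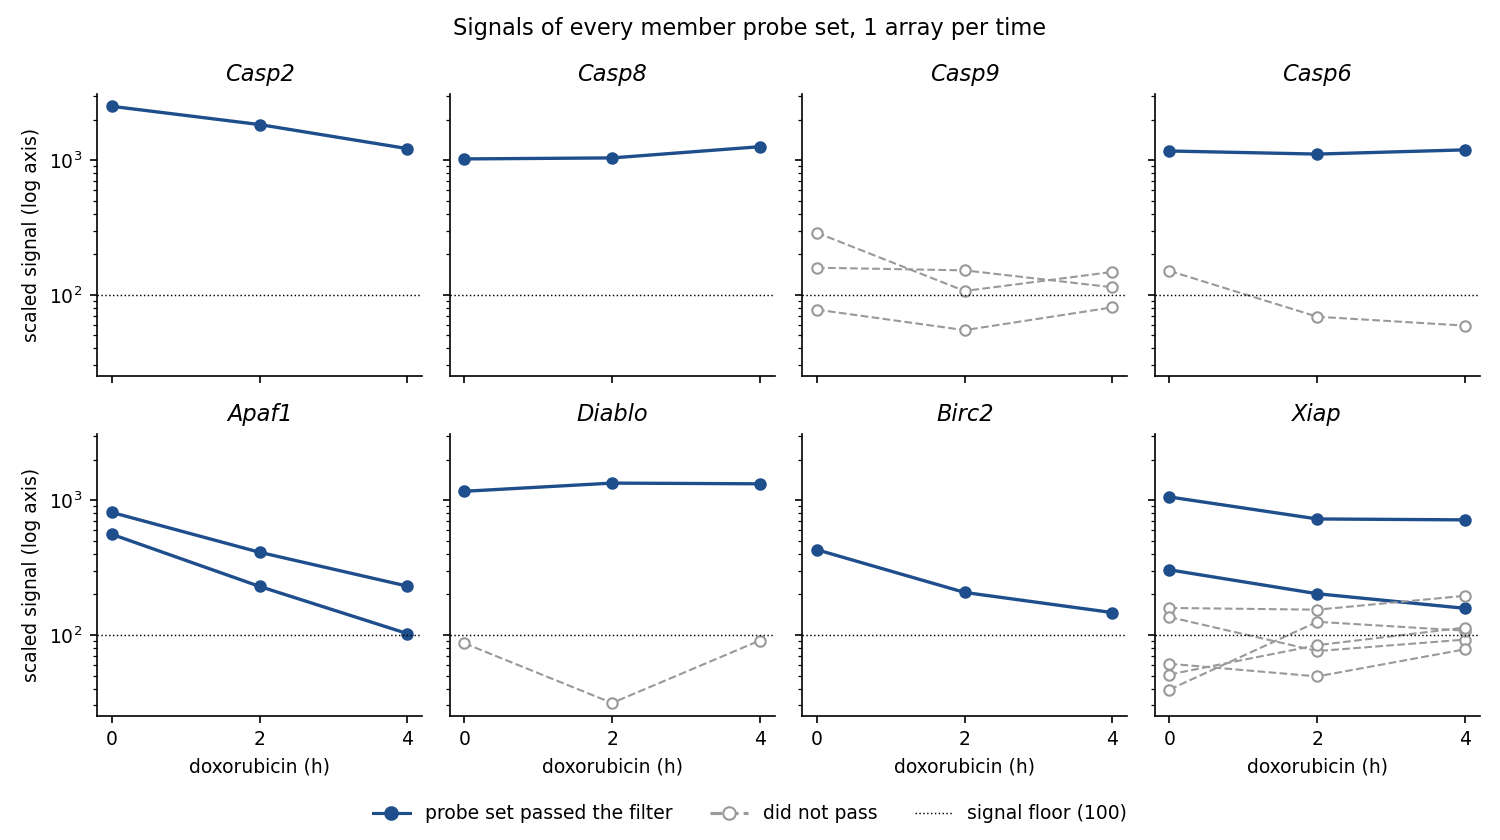
Scaled signal of each of the 19 member probe sets (log axis) at 0, 2 and 4 h of doxorubicin, 1 panel per gene and 1 point per array. Filled points on solid lines passed the filter, open points on dashed lines did not, and the dotted line is the floor of 100. Both Apaf1 probe sets, Casp2 and Birc2 step down at each time, Casp8, Casp6 and Diablo run nearly level, and all Casp9 probe sets lie under 300.

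Apaf1, the scaffold of the apoptosome, was the member furthest below its starting signal. Its brighter probe set, 1452870_at, had signals of 813, 411 and 231 at 0, 2 and 4 h. Its other probe set, 1450223_at, had signals of 559, 230 and 102. On both probe sets the 4 h signal was the lowest and the 2 h signal lay between. The brighter set was 1.98-fold lower at 2 h (log2 ratio -0.98, SD between probe sets 0.44) and 3.53-fold lower at 4 h (-1.82, SD 0.53). The dimmer set was 2.44-fold lower at 2 h and 5.46-fold lower at 4 h, where its signal lay just above the floor. Over the 2 probe sets the mean log2 ratio was -1.13 ± 0.21 at 2 h and -2.13 ± 0.45 at 4 h (SD, n = 2 probe sets of the same arrays). Of all genes, 4.07% had a lower ratio than Apaf1 at 4 h and 5.85% at 2 h. The brighter set lay in the signal class next to the dimmest. In that class 21.2% of genes lay past 2-fold lower at 4 h and 8.58% did at 2 h. The step from 2 h to 4 h was as clear on both sets, at -0.84 and -1.16 for 4 h against 2 h, about 2 times the SD between probe sets in each case.

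Apaf1 stayed past 2-fold lower at 4 h under each of the 4 scalings. Its log2 ratio ran from -2.14 with spike-in scaling to -1.51 with equal medians, and it was past 2-fold in all 10 alternatives in which it passed the filter. Several of these, such as another floor or filter, leave the 4 h ratio at -1.82. At 2 h the ratio lay next to the 2-fold line, from -1.20 to -0.83, and was past it in 2 of 10.

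The genes whose course came closest to that of Apaf1, by distance over the pair of log2 ratios at 2 h and 4 h, were Zc3h4 at a distance of 0.0147, Rara, a retinoic acid receptor, at 0.0278 and Cdc42ep1 at 0.0433. Zc3h4 had signals of 986, 501 and 282. With 3 arrays such courses are common, and 137 of 9574 genes lay within 0.3 of Apaf1.

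Casp9, the caspase that the apoptosome activates, was dim on all 3 of its probe sets, so no ratio is given for the gene. Probe set 1426125_a_at had signals of 289, 107 and 148, of which the 0 h signal alone reached 200. Probe set 1437537_at had 159, 152 and 114, and 1457816_at stayed under the floor at 77.6, 54.7 and 80.7. On 1426125_a_at the log2 ratio was -1.44 at 2 h and -0.97 at 4 h, while on 1437537_at it was -0.07 and -0.48.

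Diablo, which relieves caspases of their inhibitors once it leaves the mitochondrion, differed little between times. Its passing probe set, 1417683_at, had signals of 1166, 1341 and 1325, highest at 2 h and lowest at 0 h. The log2 ratio was 0.20 at 2 h (SD between probe sets 0.35) and 0.18 at 4 h (SD 0.42), under 1 SD each, and with spike-in scaling both turned negative, at -0.01 and -0.14. The other Diablo probe set was under the floor on each array. The gap between members does not depend on 1 scale factor per array. Apaf1 lay 1.18 log2 units below Diablo at 2 h and 2.0 below it at 4 h, which is 2.11 and 2.96 times the combined SD between probe sets. Apaf1 was the lowest member at 4 h and Diablo the highest at 2 h, so the gap describes this pair and supports no more.

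Among the initiator caspases, Casp2 was lower at each time and Casp8 was not. Casp2, the PIDDosome caspase, had signals of 2506, 1835 and 1217 on its 1 probe set, 1448165_at. Its signals were 73.2% of the 0 h signal at 2 h and 48.6% at 4 h. The log2 ratio was -0.45 at 2 h (SD between probe sets 0.27) and -1.04 at 4 h (SD 0.32), which is 2.06-fold lower. The 4 h ratio was 3.27 times that SD, and the step for 4 h against 2 h, -0.59, was 2.51 times its own. Casp2 lay in the brightest signal class, in which 3.7% of genes lay past 2-fold lower at 4 h and the median log2 ratio was 0.26. Its place past the 2-fold line was narrow. With equal medians the 4 h ratio was -0.74, short of 2-fold. It was past the line in the other 10 alternatives, but most of these leave the ratio at -1.04.

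Casp8, the initiator of the death receptor pathway, had signals of 1020, 1038 and 1257 on its 1 probe set, 1424552_at. The 0 h and 2 h signals were close together and the 4 h signal was highest. The log2 ratio was 0.03 at 2 h and 0.30 at 4 h (SD between probe sets 0.35 and 0.42), within 1 SD, and with spike-in scaling it turned negative at both times, at -0.19 and -0.02. Casp2 lay 1.34 log2 units below Casp8 at 4 h, 2.53 times their combined SD, and 0.48 below it at 2 h, 1.07 times that SD. Casp8 was the highest member at 4 h, which widens any gap to it.

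Casp6, the executioner caspase known to cleave lamin A, was the member with the flattest course. Its passing probe set, 1415995_at, had signals of 1168, 1108 and 1191, and none stood out. The log2 ratio was -0.08 at 2 h and 0.03 at 4 h, and its sign changed to 0.08 at 2 h with equal medians and to -0.29 at 4 h with spike-in scaling. A dim probe set, 1458715_at, had 151 at 0 h and 68.8 and 59.1 at 2 h and 4 h, which bounds its log2 ratio at -0.59 or lower at both times.

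Both inhibitor of apoptosis genes were below their 0 h signal at 2 h and 4 h on their passing probe sets. Birc2 had signals of 429, 207 and 147 on its 1 probe set, 1418854_at, so each later array was lower than the one before. It was 2.07-fold lower at 2 h (log2 ratio -1.05, SD between probe sets 0.56) and 2.93-fold lower at 4 h (-1.55, SD 0.66). The ratios were 1.88 and 2.35 times the SD, and the step for 4 h against 2 h (-0.50) was under 1 SD. Birc2 lay in the dimmest signal class, in which 21.2% of genes lay past 2-fold lower at 4 h and 11.7% did at 2 h. At 4 h it was past 2-fold in all 9 alternatives in which it passed the filter. Its 4 h log2 ratio ran from -1.87 with spike-in scaling to -1.10 with a floor of 200, and several alternatives leave it at -1.55. At 2 h Birc2 was past 2-fold in 6 of 9, but all of these except spike-in scaling (-1.27) leave its ratio at -1.05. It fell short of 2-fold at 2 h with equal medians (-0.90), quantile normalization (-0.86) and an offset of 50 (-0.90).

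Xiap, the direct inhibitor of caspases, had 7 probe sets, of which 2 passed. Probe set 1437533_at had signals of 1058, 727 and 715, and 1450232_at had 304, 202 and 158. On the first the 2 h and 4 h signals were nearly the same, and on the second each later signal was lower. The log2 ratio of 1437533_at was -0.54 at 2 h (SD between probe sets 0.35) and -0.56 at 4 h (SD 0.42), 1.53 and 1.33 times the SD. That of 1450232_at was -0.59 and -0.95. The other 5 probe sets ran between 39.4 and 196 and had no common course. Of these, only 1456088_at was above the floor on every array, at 159, 154 and 196, with log2 ratios of -0.04 at 2 h and 0.30 at 4 h. Probe set 1426636_a_at was under the floor at 0 h and at 125 at 2 h, a bound of at least 1.25-fold higher. Probe set 1453385_at was at least 1.36-fold lower at both times. No alternative put Xiap past 2-fold, and its 4 h ratio was -0.26 with equal medians. Birc2 lay 0.51 log2 units below Xiap at 2 h and 0.98 below it at 4 h, which is 0.772 and 1.25 times their combined SD.

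By 2 h, Xiap had reached 96% of its 4 h log2 ratio, Birc2 67.9%, Apaf1 54.1% and Casp2 43.1%. Each share was read on the brightest passing probe set of the gene. The Xiap share depended on the probe set and on the scaling. On the dimmer passing Xiap set the log2 ratio was -0.59 at 2 h and -0.95 at 4 h, a smaller share. With equal medians the Xiap ratio was lower at 2 h (-0.39) than at 4 h (-0.26). The Birc2 share depended on the floor. With a floor of 200 the Birc2 log2 ratio was -1.05 at 2 h and -1.10 at 4 h, nearly the same. The shares compare single arrays and carry the errors given above. For 4 h against 2 h none of the 7 genes was 2-fold different in either direction, beside 5.41% lower and 0.843% higher of all genes. Of the 9 probe sets, 1 was past 2-fold lower, the dimmer one of Apaf1, and none past 2-fold higher, beside 5.6% and 1.02% of all probe sets. In that comparison Apaf1 (-0.84), Casp2 (-0.59) and Birc2 (-0.50) were the lowest members, while Xiap (-0.02), Diablo (-0.02), Casp6 (0.10) and Casp8 (0.28) lay, like Birc2, within 1 SD of 0. With equal medians Xiap and Diablo took the opposite sign, at 0.13 each, and with spike-in scaling Casp6 was at -0.001.

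**Figure D2:**
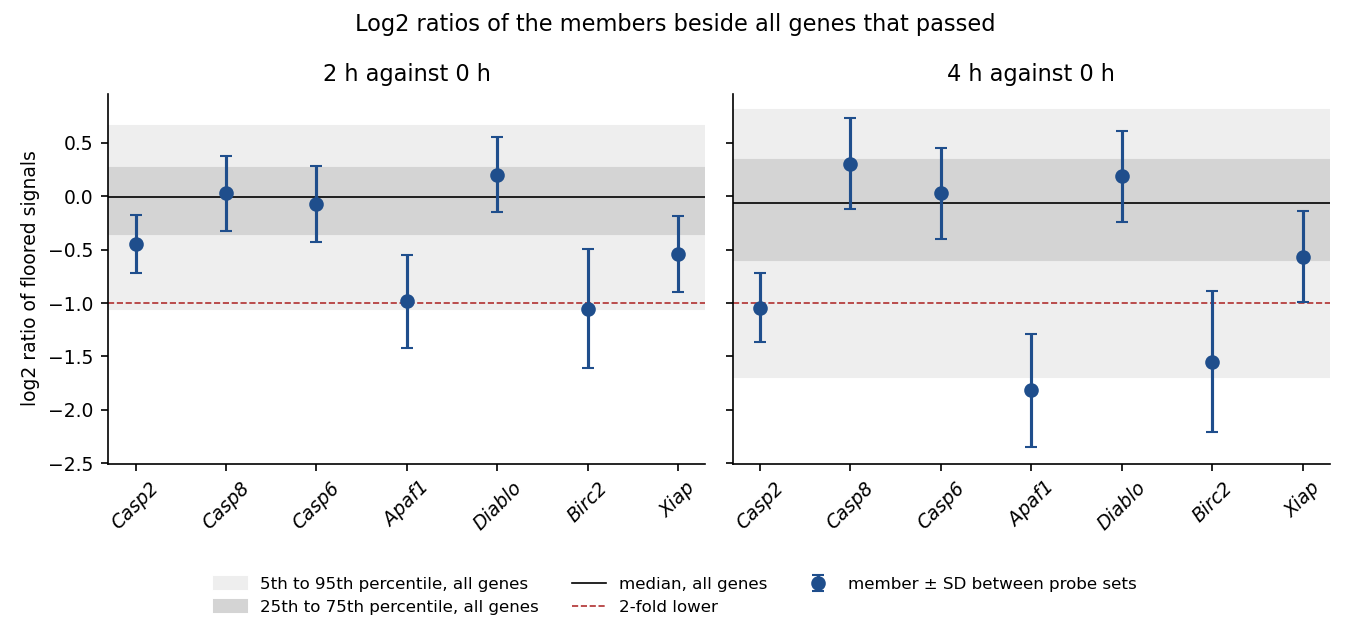
Log2 ratio (floored signals) of the 7 member genes that passed the filter, at 2 h against 0 h (left) and 4 h against 0 h (right). Bars are the SD between probe sets of a gene for that signal class, grey bands hold the middle shares of all 9723 genes, the black line is their median and the dashed line marks 2-fold lower. Apaf1 lies below the 5th percentile of all genes at 4 h, Birc2 and Casp2 lie between that and the 25th, and Casp8, Casp6, Diablo and Xiap lie in the inner band at 4 h.

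**Figure D3:**
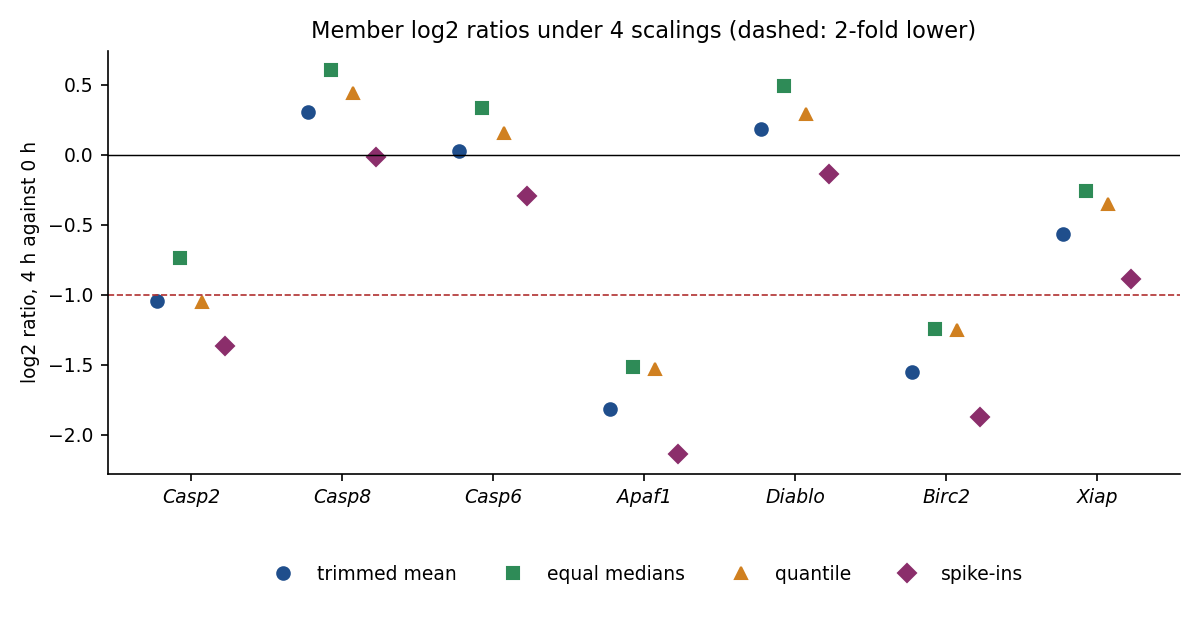
Log2 ratio at 4 h against 0 h of the 7 member genes under 4 scalings of the arrays, trimmed mean, equal medians, quantile normalization and hybridization spike-ins, with 2-fold lower as a dashed line. Apaf1 and Birc2 stay under the line in all 4, Casp2 lies above it with equal medians at -0.74, and Casp8, Casp6 and Diablo are above 0 in 3 scalings and below 0 with spike-ins.

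Around these genes, 52 other genes of the caspase pathway in 6 lists were read. Of these, 48 had a named probe set and 30 passed the filter. At 2 h against 0 h, 3 of 30 lay past 2-fold lower (Xaf1, Cflar and Card6) and none was higher, and at 4 h against 0 h 2 of 30 were lower (Traf2 and Card6) and none was higher, beside the 5.69% and 14.4% of all genes. With equal medians or quantile normalization the 2 h count was 0 and the 4 h count 1. The median log2 ratio over the 30 was -0.06 at 2 h and -0.09 at 4 h, close to that of all genes.

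Of the mitochondrial release factors all 4 passed and none was 2-fold different. Cycs, cytochrome c, which triggers Apaf1 assembly, had signals of 18368, 23792 and 27588, and its log2 ratio was 0.37 at 2 h and 0.59 at 4 h on that probe set. The mean over its 3 passing probe sets was 0.30 ± 0.15 at 2 h and 0.71 ± 0.10 at 4 h (SD). The 3 sets each had a positive ratio at 2 h and 4 h. Aifm1, a flavoprotein of the intermembrane space, was at 0.07 and 0.27, and Endog, a mitochondrial nuclease, at 0.19 and 0.18, with its second probe set at -0.21 and 0.08. The serine protease Htra2, another protein that binds inhibitors of apoptosis, was at -0.31 and -0.63, with its second probe set at 0.27 and 0.01.

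Of 12 other inhibitor of apoptosis genes and their regulators, 5 passed. Traf2, the adaptor that carries Birc2 into receptor complexes, had signals of 489, 246 and 195, lower at each time, with a log2 ratio of -0.99 at 2 h and -1.33 at 4 h. Xaf1, a protein that antagonises Xiap, had signals of 468, 214 and 397 on its passing probe set, at -1.13 and -0.24. That set was low at 2 h alone. The other Xaf1 probe set did not pass the filter and was lowest at 4 h, with signals of 273, 221 and 105, at -0.31 and -1.38. The highest at 4 h were Birc6, a very large ubiquitin ligase, at 0.25 and 0.08 with a second passing probe set at 0.41 and 0.59, and Naip6 at -0.11 and -0.10.

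Of 11 adaptors and their regulators, 7 passed. Cflar, the decoy of Casp8 known as c-FLIP, had signals of 722, 337 and 388 on its brightest probe set, with log2 ratios of -1.10 at 2 h and -0.90 at 4 h. Its other 2 passing probe sets were at -1.31 and -1.49 at 4 h, and the mean over the 3 was -1.07 ± 0.04 at 2 h and -1.23 ± 0.30 at 4 h (SD). With the mean over probe sets in place of the brightest, the pathway count lower at 4 h was therefore 3. Card6 had signals of 500, 229 and 229, at -1.13 at both times. Nol3, an inhibitor with a caspase recruitment domain, was at 0.01 and 0.45, and Pidd1, the PIDDosome scaffold for Casp2, at -0.10 and 0.09.

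Of 8 death receptors and ligands, 3 passed, and none was 2-fold different on its brightest probe set. Tnfrsf1a, the main tumour necrosis factor receptor, was at 0.09 and -0.52, Tnfrsf1b at -0.08 and -0.11 with a second probe set at -1.37 at 4 h, and Tnfrsf21 at 0.27 and 0.11 with a second probe set at -0.07 and -0.33. Of 6 other caspases 1 passed, Casp14, a caspase of keratinocytes, on an _x_at probe set at -0.68 and -0.62, while its other probe set stayed under the floor. Of 11 caspase substrates 10 passed, with none 2-fold different. Gas2 (-0.08 and 0.47) and Lmna, the lamin that Casp6 cleaves (0.49 and 0.45), were the highest at 4 h, and the kinase Stk4 (-0.08 and -0.27) and Acin1 (0.05 and -0.18) the lowest. The 3 passing Stk4 probe sets did not go one way, with 4 h ratios of -0.61, -0.27 and 0.42, while the second Acin1 set was at -0.27 and -0.26.

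**Figure D4:**
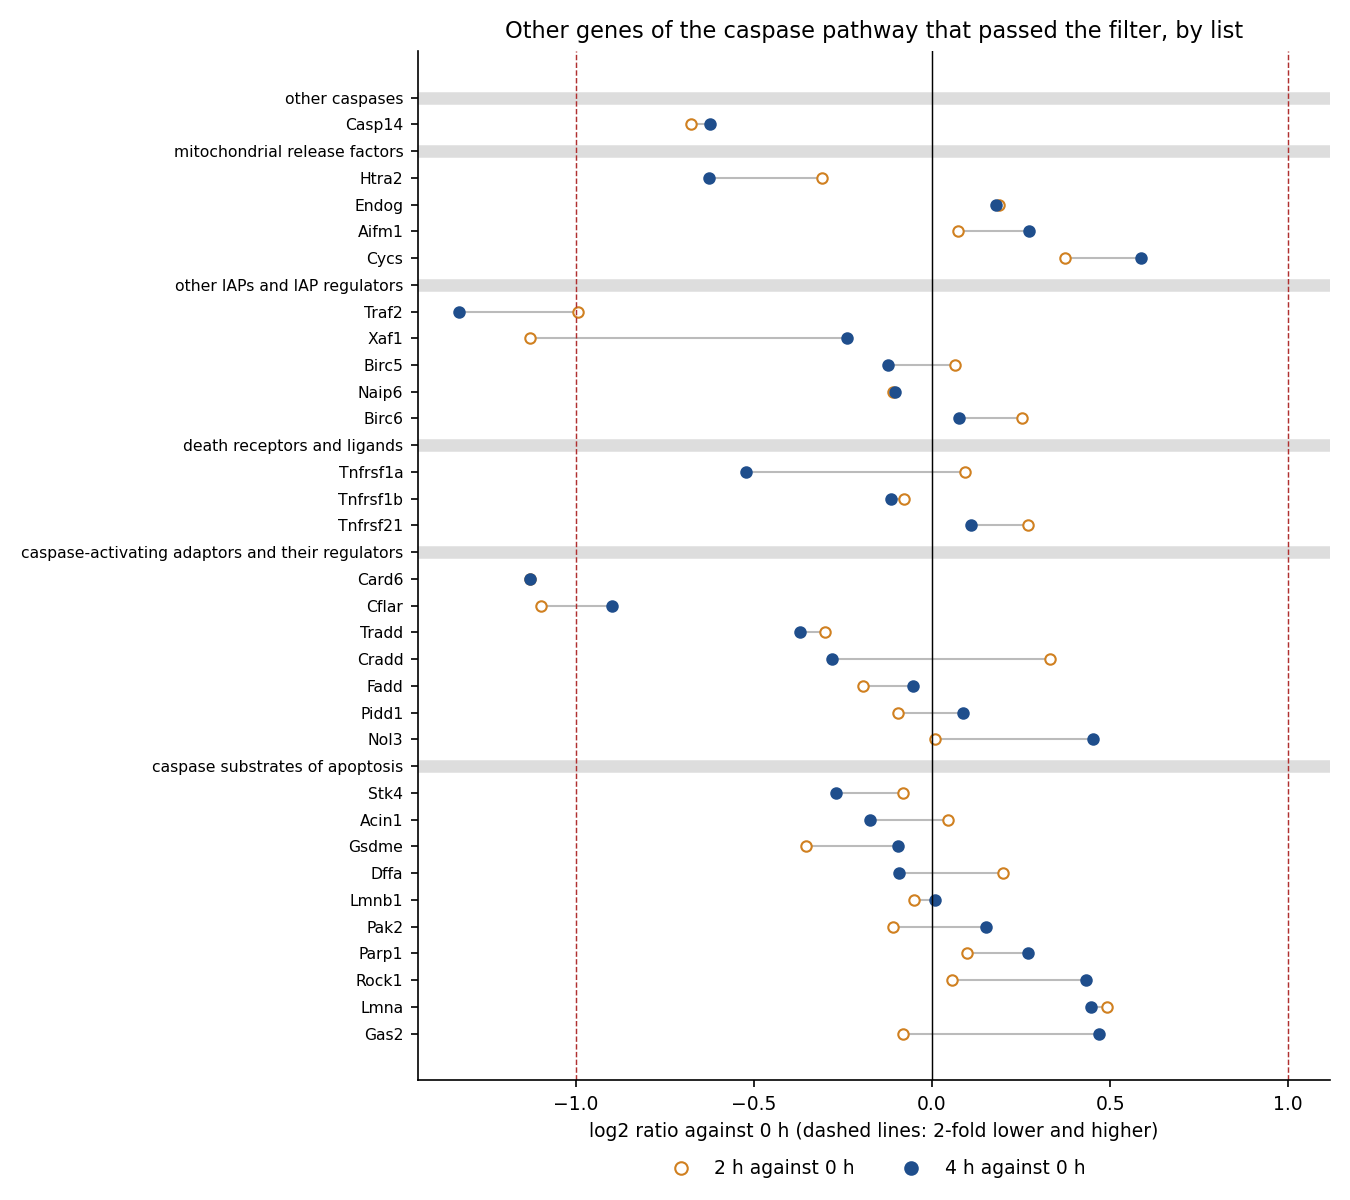
Log2 ratio against 0 h of the 30 pathway genes that passed the filter, by list, at 2 h (open points) and 4 h (filled points), 1 array per time. Dashed lines mark 2-fold lower and higher. Xaf1, Cflar and Card6 lie past 2-fold lower at 2 h, Traf2 and Card6 at 4 h, where both points of Card6 coincide at -1.13, and no gene lies past 2-fold higher.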

How the data were processed

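RNA from B16 cells at 0, 2 and 4 h of doxorubicin was measured on 1 array per time. The submitters' processing notes name GCOS 1.4, with no signal algorithm stated. The values that the authors deposited are intensities on a linear scale, and their 2% trimmed mean is 150.0 for every array. They were multiplied to a trimmed mean of 500, floored at 100 and put on the log2 scale. The passing probe set of highest mean log2 signal represents its gene. Of 45101 probe sets, 34958 carried 1 gene symbol, 932 several, and 9211 were not listed, and 34754 symbols were updated by Entrez ID to GRCm38.p6. No test was made, and 2-fold was the size counted. Members and lists were chosen with earlier results of these data known. Of 52 listed pathway genes 4 were not analysed here. The rule named all members, the 2 highest and 2 lowest genes of each list at 4 h, the brightest marker of each cell type and the 3 genes closest to the most changed member. The steps were tested on simulated data in which only bright genes were lowered. That does not test calls near 2-fold on dim probe sets. The number of arrays limits the precision. Python 3.11.15, numpy 2.4.6, pandas 2.3.3 and matplotlib 3.10.9 were used.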

Additional observations from a re-analysis of the deposited data

How the results depend on the processing

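The 11 alternatives changed the scaling, the floor, the filter, the summary of a gene or the probe sets used. The count of 3 member genes at least 2-fold lower at 4 h was 1 (Casp2) with the values as deposited, where the floor and filter act on a smaller scale and Apaf1 and Birc2 did not pass, 2 (Apaf1 and Birc2) with equal medians and 2 (Apaf1 and Casp2) with a filter of 400, which Birc2 did not pass, and 3 in the other 8. The count of 1 at 2 h was 0 with equal medians, quantile normalization, the values as deposited, an offset of 50 or a filter of 400, and 2 with spike-in scaling (Birc2 and Apaf1), with no filter (Birc2 and Casp9) or with the mean over probe sets (Apaf1 and Birc2). No member was 2-fold higher, or 2-fold different between 4 h and 2 h, in any alternative. Of 222 member log2 ratios recomputed, 221 moved by less than the SD between probe sets, and Casp2 at 4 h was at -1.36 with spike-in scaling. Many of these could not move. Another floor or filter leaves the ratio of a bright probe set as it was, and the deposited values already share 1 trimmed mean. The 221 therefore do not measure how stable the ratios are. Over all genes, the count lower ran from 107 to 1027 at 2 h (553 as reported), from 430 to 2206 at 4 h (1396) and from 132 to 754 for 4 h against 2 h (526), and the count higher from 16 to 343 (137), 65 to 727 (226) and 12 to 254 (82). The pathway count lower ran from 0 to 5 at 2 h (3) and from 0 to 4 at 4 h (2). No paired analysis was possible because each time had 1 array, and no replicate could be left out. Signal over background limits the dim probe sets, for which the floor gives bounds.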

Other observations

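Several pathway genes had probe sets that went opposite ways or lay under the filter, and those given here were picked after their values were seen. For Cflar, probe set 1453482_at had signals of 28.4, 126 and 234 at 0, 2 and 4 h, at least 2.34-fold higher at 4 h, while the other 4 Cflar probe sets were all lower at 2 h and 4 h than at 0 h. For Gsdme, a gasdermin that caspases can cleave, probe set 1417903_at had 41.2, 235 and 283, at least 2.83-fold higher at 4 h, beside 590, 462 and 553 on 1421534_at. Whether these probe sets report other transcripts was not tested. Dffb, the caspase-activated DNase, had 288, 134 and 24.5 on 1421229_at, at least 2.88-fold lower at 4 h, and did not pass the filter. Casp8ap2, a Casp8-binding nuclear protein, had 315, 81.1 and 132 on its 1 probe set, 2.39-fold lower at 4 h and, with the 2 h signal under the floor, at least 3.15-fold lower at 2 h.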
